A study of Oryza sativa with 3 samples.

Results

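In the rice genome, many nucleosome calls overlap their neighbour, so that a single stretch of DNA is assigned to alternative nucleosome positions. The pairs described here are adjacent calls whose centres lay 100 bp or less apart and which were both occupied by reads of a second library. The calls came from paired-end MNase-seq data (biological replicate 2) and the occupancy from single-end MNase-seq reads (biological replicate 1, 2 technical replicates deposited together). Both libraries were made from leaf tissue of 2-week-old seedlings of the cultivar Nipponbare, after digestion of nuclei with micrococcal nuclease (MNase) and isolation of mono-nucleosomal DNA. There was no treatment, mutant or control group, and each form of sequencing had 1 biological replicate. Occupancy was the number of single-end reads whose 5' end, moved 73 bp inward to the centre of the nucleosome (the dyad), fell no more than 20 bp from a call's centre. Pairs were kept when both calls had an occupancy of 8 or more. This rule gave 120448 occupied overlapping pairs among 2195610 pairs with centres 100 bp or less apart (close pairs) and 3456843 adjacent pairs in all.

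A nucleosome is formed by DNA wrapped around an octamer of histones, and MNase digests the linker DNA between nucleosomes. Where a sequenced fragment starts, the edge of a nucleosome is marked. Complete nucleosomes cannot occupy overlapping DNA of the same molecule at the same time, so overlapping positions that are both occupied describe a population of molecules. Reads from many cells were sequenced together, and whether the alternative positions were used in different cells, on different alleles or at different times cannot be told apart here. DNA turns around its axis about once per 10 bp, so that positions shifted by such steps keep the same face of the DNA toward the histones.

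The single-end library held 26516807 reads, or 71.3 reads per kb over the 12 chromosomes. A random position had an occupancy of 2.92 reads on average, the calls had 4.23 ± 4.23 reads (SD over calls), and 17.6% of all calls had 8 or more. Of the close pairs, 5.49% had both calls occupied, and the same share (5.49%) was found over adjacent pairs of any distance. The share was 4.65% at distances between those of close pairs and 140 bp, and 7.73% at 140 to 200 bp. These shares follow from the rule, and having both calls occupied was therefore as frequent among overlapping calls as among adjacent calls in general. With 1 library in each form, differences between sets of regions were not tested. Ranges over the 12 chromosomes are given as a description of their spread, and intervals cover counting error only.

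The threshold cut through a continuous distribution. The smaller occupancy of the pair was exactly 7 in 69195 close pairs, just outside the rule, and exactly 8 in 44367 pairs, just inside. At the limit of the distance, 1411 pairs with both calls occupied had centres 100 bp apart and 1333 were found 1 bp beyond it. The less occupied call of a pair had 9 reads at the median and 14 at the 95th percentile. The more occupied call had 12 reads at the median and 22 at the 95th percentile. Most pairs thus lay close to the minimum, and few had deep coverage at both positions. When reads at the same position and strand were counted once, 53901 of the pairs (44.8%) still had 8 reads or more at both calls. Repeated reads made up 24.5% of the reads at calls of occupied overlapping pairs and 16.7% at calls of all close pairs.

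The distances between alternative positions had a broad maximum. Counted in steps of 1 bp, the most frequent distance was 62 bp, with 3368 pairs, and the median was 66 bp (lowest chromosome 66 bp, highest chromosome 67 bp). The 25th and 75th percentiles were 57 and 79 bp. All close pairs had the same median and the same percentiles, with the most frequent distance at 64 bp. After the maximum the number of pairs fell to 1226 at 88 bp and rose again to 1411 at 100 bp, and close pairs had their lowest number at 88 bp as well. Only 4080 pairs (3.39%) were 40 bp or less apart, and the shortest distance was 2 bp. At these distances the windows of both calls share reads, so values that compare both calls are given below for the 116368 pairs that were 41 to 100 bp apart.

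The share of close pairs with both calls occupied decreased slightly with distance. It was 6.47% (95% Clopper-Pearson interval 6.28% to 6.66%) at 40 bp or less, where shared reads raise it. It was 5.64% (5.58% to 5.69%) at 41 to 60 bp, 5.42% (5.38% to 5.47%) at 61 to 80 bp and 5.29% (5.22% to 5.35%) at 81 to 100 bp. The largest amplitude at periods near 10 bp, after division by a running mean over 11 bp, was 0.973% of the mean for occupied overlapping pairs and 0.50% for all close pairs. The error of these amplitudes was not computed, so whether the distances between calls hold steps near 10 bp is not settled by them. Before calling, the authors smoothed the paired-end signal with a Fast Fourier Transform, and how far this allows steps of 10 bp between calls was not tested.

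**Figure D1:**
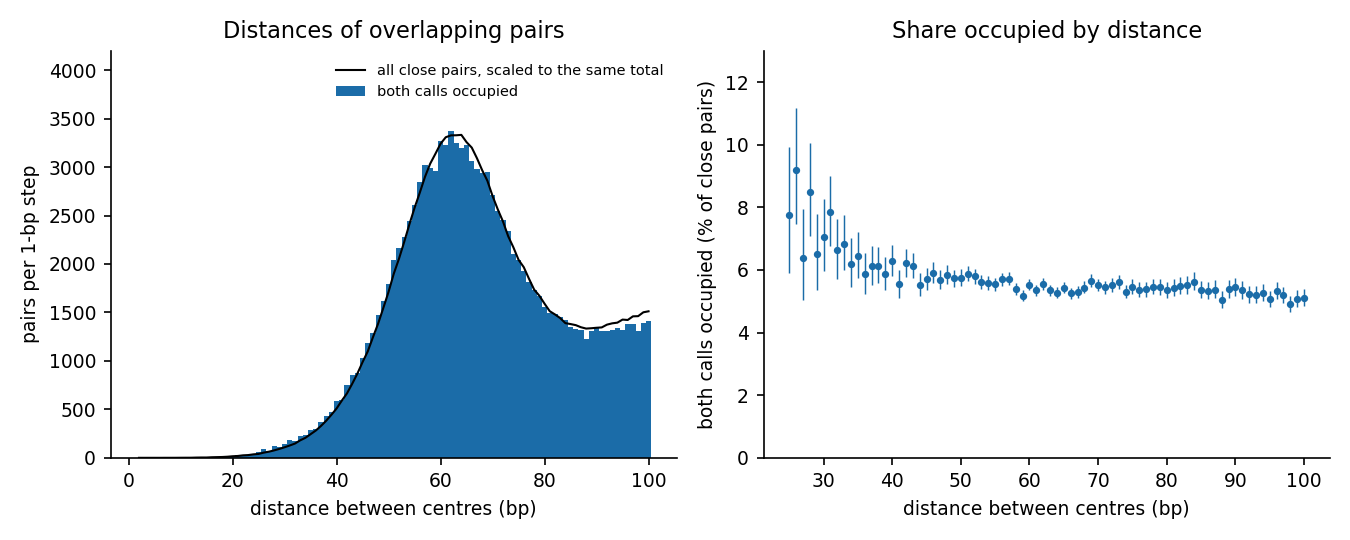
Left, number of pairs with both calls occupied by distance between centres in steps of 1 bp (bars), with all close pairs scaled to the same total (line). Right, percentage of close pairs with both calls occupied at each distance from 25 bp, with 95% Clopper-Pearson intervals. The distances of occupied pairs peak at 62 bp and follow those of all close pairs, and the percentage is 5.64% at 41 to 60 bp and 5.29% at 81 to 100 bp.

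Read centres were densest at both positions, with a lower level between them that was still above the genome mean. Within 5 bp of the centres, the density of read centres was 4.80 times the genome mean at the left call and 4.80 times at the right call, and it was 2.13 times the genome mean at the midpoint of the pair. The rule used the reads at the calls, so the levels are a description. The level at 500 to 1000 bp beyond the pairs was 1.51 times the genome mean, so that the midpoint was above the flanks as well. In pairs 41 to 60 bp apart the midpoint was at 2.47 times the genome mean, and it was at 1.98 times for 61 to 80 bp and 1.93 times for 81 to 100 bp. The positions were thus separated by a dip in each class of distance, and the dip was shallowest in the closest pairs. In part of these closest pairs, however, the window at the midpoint overlaps the windows in which the rule required reads. Their level at the midpoint is therefore in part set by the rule.

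The reads of one strand were used to choose pairs and those of the other strand, which the choice did not use, were read. With 4 or more forward reads at both calls, 155456 pairs 41 to 100 bp apart were chosen. Their reverse reads were 1.89 times as dense at the centres as at the midpoint, where the ratio over all close pairs was 1.81. The reverse occupancy was 4.24 reads at the left call and 4.31 at the right call, compared with 2.07 and 2.08 over all close pairs. In 30.9% of these pairs both calls also had 4 or more reverse reads, and 7.26% of all close pairs did. Choosing on reverse reads gave 154764 pairs, a ratio of 1.90 on forward reads and 31.1% of pairs with 4 or more forward reads at both calls. Both strands belong to the same library and share its regional density, so this is not a replicate.

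The strands were nearly even at both positions. In 98.2% of the pairs 41 to 100 bp apart both strands were present at both calls, and in 73.4% each strand had 3 or more reads at each call. In 2116 pairs a strand was missing at one call or both. Forward reads made up 50.4% of the occupancy at the left call and 49.7% at the right call, a difference of 0.712 percentage points (lowest chromosome 0.229, highest chromosome 0.948). The difference was positive on all 12 chromosomes and depended on the distance, with 1.38 points at 41 to 60 bp, 0.524 points at 61 to 80 bp and 0.124 points at 81 to 100 bp. It was 0.122 points over all close pairs of these distances and -0.868 points in occupied pairs 140 to 200 bp apart. A forward excess on the left together with a reverse excess on the right was therefore present but small.

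**Figure D2:**
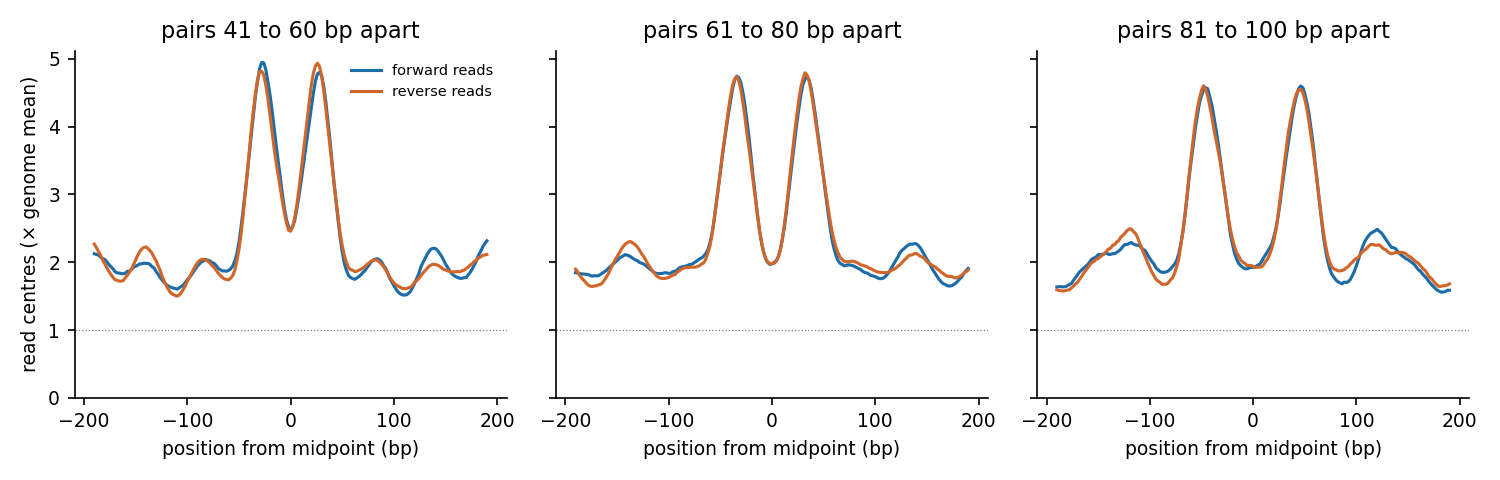
Mean density of read centres around the midpoint of occupied overlapping pairs, in multiples of the genome mean, for forward and reverse reads in 3 classes of distance between centres, smoothed over 11 bp. Forward and reverse reads each have a maximum at both positions, with a dip to 2.47, 1.98 and 1.93 times the genome mean (both strands) at the midpoint.

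Occupancy was shared nearly evenly in most pairs. In the 116368 pairs 41 to 100 bp apart, the less occupied call held a median of 44.4% of the reads of the pair, with a 5th percentile of 31.3%. The chromosome medians were between 44.2% and 44.4%. The left call was more occupied in 43.5% of the pairs and the right call in 43.5%, and 15165 pairs were even. The ratio of the more to the less occupied call was 2 to 3 in 7.97% of the pairs and 3 or more in 1.03%, and the highest ratio was 14.9. The minimum of 8 reads at both calls removes uneven pairs of low coverage, which limits how uneven the remaining pairs can be.

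How uneven a pair could be, and could be shown to be, depended on its depth. The Clopper-Pearson interval of the share left out 50% in 4731 pairs (4.07%). With 16 to 19 reads in the pair this happened in 0% of the pairs, and the median share of the less occupied call was 47.1%. Among pairs with 30 to 49 reads, 25.7% of 14178 left out an even split and the median was 38.7%. Among 786 pairs with 50 or more reads, 52.9% left out an even split and the median was 35.1%. With at least 8 reads at both calls, the lowest share the rule admits falls as the reads of the pair increase, and intervals become narrower, so these values do not show that deeper pairs were less even. An uneven split was not detectable in pairs of low coverage. The median share was 44.4% in each of the 3 classes of distance.

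The balance of occupancy could be compared with the paired-end library through the score that nucleR gave to each call, which the rule did not use. Of the occupied overlapping pairs with unequal occupancy, 65.8% had the higher score at the more occupied call (64.6% to 66.6% on single chromosomes), while over all close pairs of the same distances it was 66.8%. This share was higher at higher ratios of occupancy. It was 56.0% in the class with the lowest ratios, 74.3% for a ratio of 1.5 to 2, 85.6% for 2 to 3 and 95.5% for 3 or more (1204 pairs). Spearman's rho between the left share of reads and the difference of the scores was 0.399 across the 116368 pairs and 0.397 across all close pairs, which share calls and libraries and are not independent replicates. The position preferred in the single-end library was therefore mostly the one with the higher score in the other library, and the share was similar in close pairs in general.

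**Figure D3:**
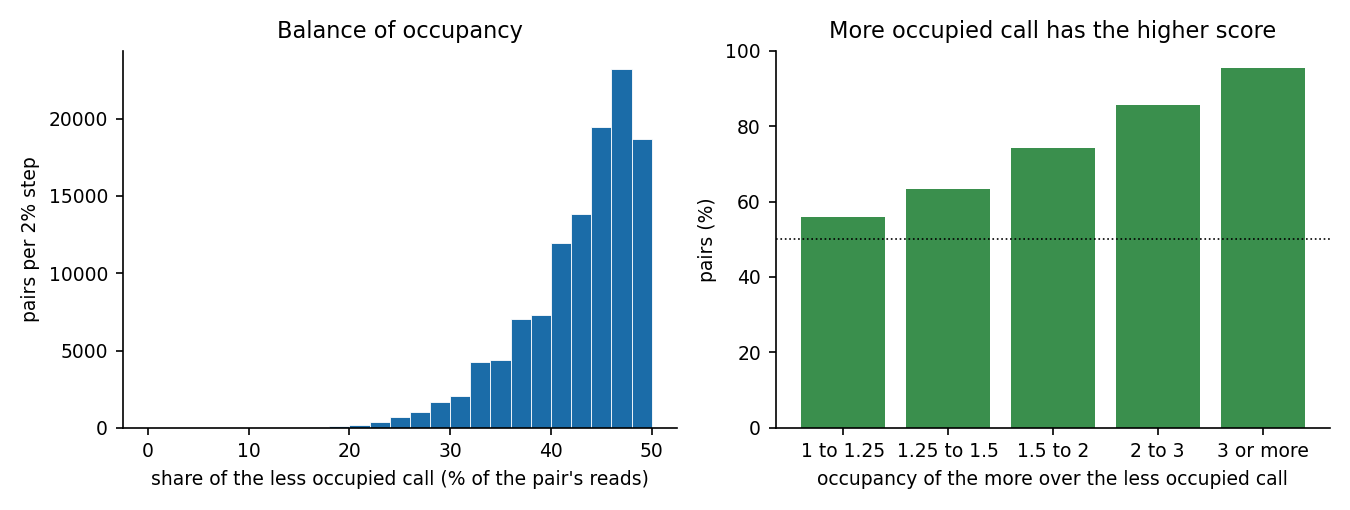
Left, number of pairs 41 to 100 bp apart by the share of the pair's reads at the less occupied call, in steps of 2%. Right, percentage of pairs in which the more occupied call also had the higher score, by ratio of occupancy, with a dotted line at 50%. The median share is 44.4%, and the percentage rises from 56.0% to 95.5%.

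The calls of these pairs had high scores compared with all calls, but not compared with other occupied calls. The 120448 pairs contained 210617 distinct calls with a median score of 0.635, where the median over all calls was 0.469 and over all calls with 8 reads or more 0.644. Of the distinct calls, 24.5% were among the 10% of all calls with the highest score. The scale of the score differed between chromosomes (90th percentile 0.548 on chromosome 9 and 0.733 on chromosome 5), and this share ran from 1.28% to 40.2% of the distinct calls on single chromosomes. Against the highest 10% of scores of the own chromosome, the share was 24.1% (22.2% to 27.7%), and it was 32.0% for all calls with 8 reads or more. The lower score of the pair had a median of 0.565 and the higher score 0.690. In 4.99% of the pairs both calls were in the highest 10% of all scores, compared with 0.576% of close pairs.

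Steps near 10 bp were present in the ends of the reads. Distances between 5' ends on the same strand, counted within the pairs and 100 bp beyond the centres, had maxima at 10, 21, 30, 39, 51, 60 and 69 bp. The value at 10 bp is the first computed, so a maximum there is seen from 1 side only. The amplitude was 2.49% of the running mean at a period of 10.2 bp (2.14% to 2.78% on single chromosomes), while periods away from 10 bp had a median amplitude of 0.328%. Steps of similar period were found elsewhere, and over all chromosomes together they were largest in close pairs with no call occupied, at 2.88% (2.60% to 3.18%). Close pairs with 1 call occupied had 2.57% over all chromosomes but 2.67% to 4.87% on single ones, with periods from 9.5 bp to 10.4 bp. With repeated reads counted once they had 2.32% (2.25% to 2.42%). The amplitude was 2.64% at 10.2 bp over the genome, 2.69% at 10.3 bp at occupied calls that overlapped no other call (lone calls), and 2.56% at 10.4 bp in occupied pairs 140 to 200 bp apart. When repeated reads were counted once, the amplitude was 2.03% at occupied overlapping pairs (1.81% to 2.28%), 2.39% over the genome and 2.16% at lone calls. It was then 2.57% (2.42% to 2.82%) in close pairs with no call occupied, above the range of the occupied overlapping pairs, which had the lowest value of these sets. The steps were thus not larger at occupied overlapping pairs than in the other sets.

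Steps were also found between reads of the alternative positions. Distances from ends in the window of the left call to ends of the same strand in the window of the right call had maxima at 40, 51, 60, 70, 81 and 90 bp, and a further one (3.203%) beyond 100 bp. The value at 40 bp is the first computed, so that a maximum there has no value before it. Ends of reads in both windows thus lay at distances with steps near 10 bp, as ends on one strand did over the genome. Whether the alternative positions themselves were offset by such steps was not tested. The amplitude was 1.60% at a period of 9.9 bp (0.929% to 2.51% on single chromosomes, with periods from 9.6 bp up to the end of the range searched). With repeated reads counted once it was 1.30%. In close pairs with 1 call occupied it was 1.64%, and in close pairs with no call occupied it was 1.94%, at the same period of 9.9 bp.

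**Figure D4:**
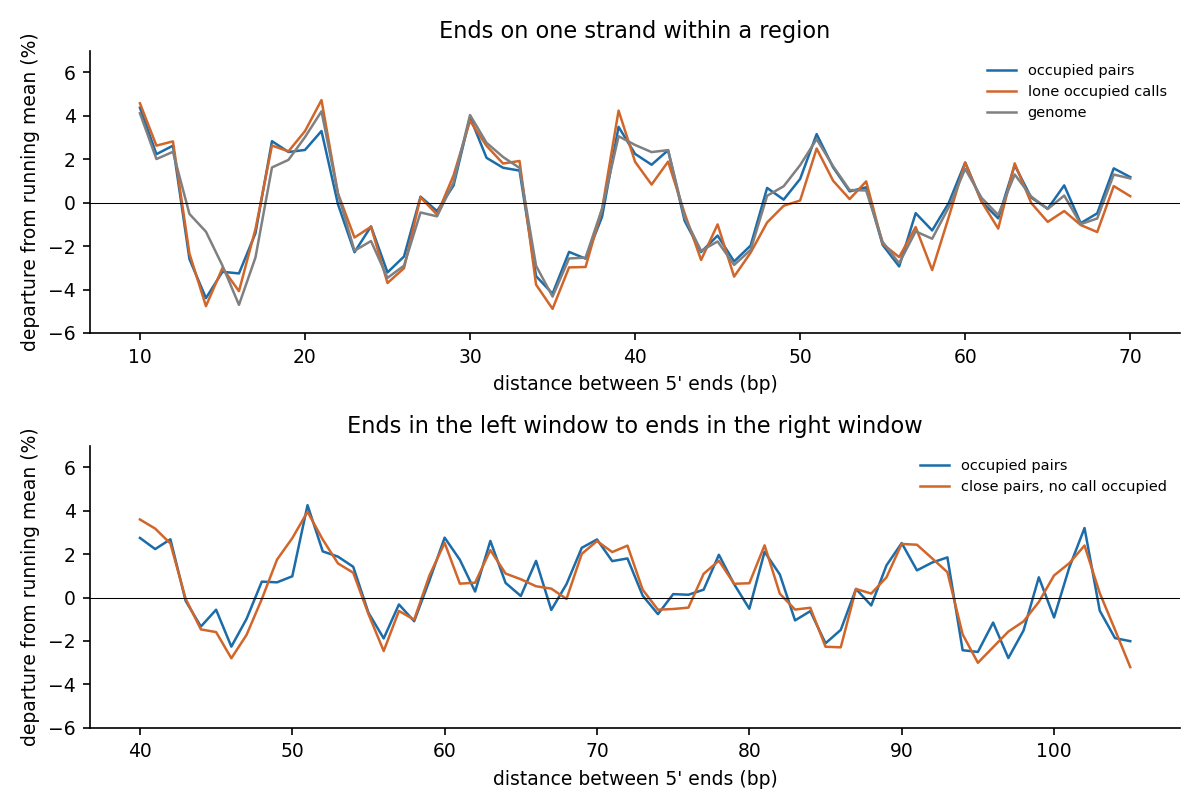
Departure of the number of pairs of 5' ends from its running mean over 11 bp, by distance between the ends. Top, ends on one strand within occupied overlapping pairs, at lone occupied calls and over the genome. Bottom, ends in the left window to ends in the right window, for occupied overlapping pairs and close pairs with no call occupied. The curves rise and fall together with amplitudes of 2.49%, 2.69% and 2.64% in the top panel and 1.60% and 1.94% in the bottom panel.

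The length of protected DNA was the usual one. The most frequent distance from a forward 5' end to a reverse 5' end within occupied overlapping pairs was 147 bp, a length of 148 bp, and chromosomes gave 146 to 148 bp. It was 147 bp at lone calls as well. The maximum was lower, with 1.36 times the mean of distances of 100 to 200 bp compared with 1.70 times at lone calls.

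Beyond the pairs, the level of read centres varied less than beside lone calls. The swing from the first minimum to the first maximum of read centres beyond the outer centre was 22.8% of the level at 500 to 1000 bp (20.2% to 24.2% on single chromosomes). It was 100.3% beside lone occupied calls (97.8% to 105.4%) and 77.5% beside occupied pairs 140 to 200 bp apart (71.7% to 84.1%). Close pairs with 1 call occupied had 20.1%, which was close to the value beside occupied overlapping pairs. The second swing was 10.9% beside occupied overlapping pairs and 58.8% beside lone calls. Occupied overlapping pairs lay in regions with many reads, with a level at 500 to 1000 bp of 1.51 times the genome mean, compared with 1.16 times beside lone calls. The part of this density in the smaller swing was not tested. Lone calls were chosen for having no other centre within 120 bp, which favours a deep minimum beside them. The swings are not measures of the same trough, since that of the pairs started at 138 bp, between maxima at 108 and 170 bp, and that of lone calls at 95 bp. In pairs that shared no call with another one the swing was 45.9%.

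Read centres beyond the pairs had maxima at about the same distance from both calls. In each class of distance, a maximum lay at 168, 171 and 172 bp from the outer centre for pairs 41 to 60, 61 to 80 and 81 to 100 bp apart. Another lay at 167, 171 and 165 bp from the inner centre. Seen from the outer centre, this other maximum moved closer with the distance of the pair, from 115 bp to 103 bp and 74 bp. In pairs 41 to 60 bp apart a further maximum lay nearer, at 55 bp from the outer centre. Over all distances, maxima lay at 60, 108 and 170 bp from the outer centre. Close pairs with 1 call occupied had them at nearly the same places, at 62, 108 and 170 bp. These maxima were therefore not particular to pairs with both calls occupied. At lone calls, chosen without a near neighbour, the first maximum was at 178 bp.

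**Figure D5:**
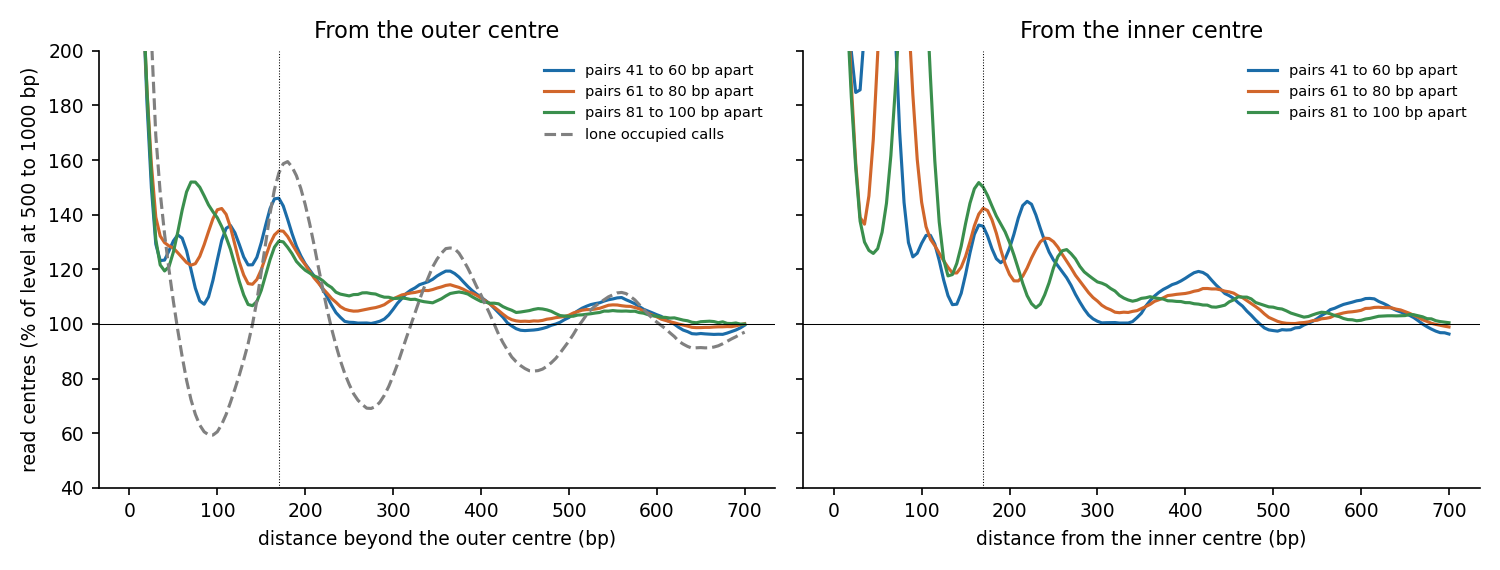
Density of read centres beyond the outer centre (left) and from the inner centre across the pair (right), in percent of the level at 500 to 1000 bp, for 3 classes of distance and for lone occupied calls (dashed), smoothed over 21 bp, with the axis cut above the maxima so that the higher peaks at the centres are not shown. The dotted lines at 170 bp mark maxima at 168 to 172 bp from the outer centre and at 165 to 171 bp from the inner centre, and lone calls swing by 100.3%.

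Phasing further out depended on the distance of the pair. The first swing was 39.0% for pairs 41 to 60 bp apart (34.4% to 42.1%), 19.9% for 61 to 80 bp (17.5% to 22.5%) and 24.2% for 81 to 100 bp (20.7% to 28.9%). These swings start from different minima, at 84 bp for the closest pairs and further out for the wider ones, and are not measures of the same trough. The second swing was 19.3% (17.1% to 23.2%) and 9.84% (7.91% to 13.8%) in the closer classes, with the minima at 275 and 254 bp. For pairs 81 to 100 bp apart it was 2.76% (1.30% to 6.24%), measured from 320 bp. That is the end of the range searched and not a trough, since the profile went down further, to 107.7% at 343 bp. The value of 2.76% is therefore cut short by the range. From the inner centre it was 18.9%, 8.82% (7.54% to 13.1%) and 9.53% (7.01% to 13.4%), so that the decrease between the wider classes was found from the outer centre and not from the inner one. For pairs 41 to 60 bp apart, later maxima lay at 363 and 560 bp from the outer centre. At lone calls they lay at 365 and 561 bp. In pairs 81 to 100 bp apart, the second maximum reached 111.7% of the level, compared with 119.4% in pairs 41 to 60 bp apart.

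Levels beyond the pair differed between the side of the more and of the less occupied call. The rule chose a pair without the reads beyond it. Where a pair shared a call with another one, however, reads beyond it were used to choose the other pair. Of pairs 41 to 60 bp apart with a ratio of occupancy of 1.5 or more, 10893 sides lay beyond the more occupied call and as many beyond the less occupied call. Beyond the more occupied call, the level 160 to 180 bp from the outer centre was 156.2% and from the inner centre 132.9%. Beyond the less occupied call, the values were 148.1% and 145.7%. The level from the outer centre was thus the higher one beyond the more occupied call, and beyond the less occupied call both were close together. Both levels were read at different places, since that from the inner centre lies nearer the pair by the distance between the calls. The levels from the outer centre ranged over chromosomes from 152.6% to 163.9% and from 142.6% to 156.5%, so that both sides overlapped.

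In wider pairs the level from the outer centre was again higher beyond the more occupied call than beyond the less occupied call, but it was not always above the level from the inner centre. At 61 to 80 bp the values were 146.2% from the outer centre and 143.0% from the inner centre beyond the more occupied call, and 132.1% and 155.7% beyond the less occupied call. At 81 to 100 bp they were 144.1% and 159.3% beyond the more occupied call, and 122.5% and 161.0% beyond the less occupied call. The level from the inner centre was thus the higher one on both sides. In this class it was read near the maximum of 152.4% at 74 bp from the outer centre, and the maximum at 172 bp was 130.7%. The difference between both levels therefore also depends on the distance of the pair. In each class the level from the outer centre was lower on the side of the less occupied call, and at 61 to 80 bp the chromosomes did not overlap (141.2% to 158.4% and 127.5% to 136.0%). At 81 to 100 bp the ranges over chromosomes nearly touched but did not overlap (136.776% to 153.5% and 117.0% to 136.756%). Sides were also chosen by the score of the paired-end library, which the rule did not use. The more occupied call mostly had the higher score, so this choice of sides is not independent of the occupancy. The level from the outer centre minus that from the inner centre was then 21.9 and -1.84 points at 41 to 60 bp, for the side of the higher and of the lower score. It was 2.76 and -21.2 points at 61 to 80 bp, and -12.9 and -31.3 points at 81 to 100 bp.

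The next call outward was often another overlapping one. At 240894 outer sides, 64.7% of the next calls were 100 bp or less from the outer centre, as were 65.4% beside all close pairs and 47.2% beside occupied pairs 140 to 200 bp apart. A next call at 140 to 200 bp followed at 9.91% of the sides, compared with 26.0% beside the pairs 140 to 200 bp apart. The next call had 8 or more reads at 38.5% of the sides, where the share over all close pairs was 17.7%. Beside occupied pairs 140 to 200 bp apart it was 32.3%, so a raised share was not particular to overlapping pairs. Of next calls at 140 to 200 bp, 41.6% had 8 or more reads beside occupied overlapping pairs and 41.1% beside the pairs 140 to 200 bp apart. Some pairs were therefore linked through a shared call. Of the 120448 pairs, 69583 (57.8%) shared no call with another one, 14170 runs had 3 calls, and the longest run had 16 pairs.

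Pairs that shared no call had a first swing of 45.9%, compared with 22.8% for all pairs. Leaving out linked pairs removes places with an occupied call just beyond the pair, so this rise is in part set by the choice itself.

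Occupied overlapping pairs were spread over the genome and were most frequent where reads were dense. At least 1 pair was found in 76.9% of 37197 bins of 10 kb with reads, with 2 pairs in the median bin and 10 at the 95th percentile. Chromosome 3 had the most pairs per 1000 close pairs (62.5) and chromosome 12 the fewest (49.9). These chromosomes also had the most and the fewest reads per kb, 77.4 and 67.6. In the fifth of the bins with the fewest reads 0.817% of close pairs had both calls occupied, and in the fifth with the most reads 11.2%. The latter bins held 45.98% of the pairs and 22.6% of the close pairs. Over 377 bins of 1 Mb the share ran from 1.80% to 9.84% with a median of 5.48%, and its Spearman's rho with the number of reads in the bin was 0.792, where both share the same reads. The minimum of 8 reads thus chose regions of high read density together with alternative positions.

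The pairs with the most reads at both calls were of different kinds. Positions follow TIGR release 5, as deposited, and genes at these places were not looked up, since the gene table at hand names another build. On chromosome 6, calls at 15464197 to 15464317 and 15464281 to 15464401, 84 bp apart, had 110 and 58 reads. All reads at the left call were reverse and all at the right call forward, and they fell on 6 and 8 combinations of position and strand. On chromosome 1, calls at 17180357 to 17180477 and 17180420 to 17180540, 63 bp apart, had 67 and 43 reads, all forward and from 5 and 8 positions. These 2 places have their occupancy from few positions and from 1 strand at each call, and with repeated reads counted once the left calls had fewer than 8 reads.

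In the other pairs of highest occupancy both strands were present. On chromosome 11, calls at 16041366 to 16041486 and 16041420 to 16041540, 54 bp apart, had 58 reads (31 forward, 27 reverse) and 56 reads (30 forward, 26 reverse), and 24 and 22 with repeated reads counted once. Their scores were 0.742 and 0.663. On chromosome 4, calls at 15614459 to 15614579 and 15614527 to 15614647, 68 bp apart, had 47 and 51 reads, with scores of 0.723 and 0.715. This bin of 10 kb held 3751 reads and 44 occupied overlapping pairs, compared with a median of 738 reads and 2 pairs per bin. The position with more reads was that with the higher score in the first of these pairs and not in the second, where occupancy was nearly even.

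A place on chromosome 11 held several alternative positions. Calls at 15329299 to 15329419 and 15329361 to 15329481, 62 bp apart, had 48 and 53 reads, and 26 and 22 with repeated reads counted once, the most of all pairs 61 to 80 bp apart. The most of all pairs 81 to 100 bp apart, 20 and 19, was found beside it, at calls from 15329162 to 15329282 and from 15329258 to 15329378, 96 bp apart, with 56 and 40 reads. The centres of these 4 calls, at 15329222, 15329318, 15329359 and 15329421, all lay within 200 bp, and the bin had 661 reads, fewer than the median bin. The 56, 40, 48 and 53 reads of these calls are part of the 661, so the reads of the bin were concentrated at this place. In the class of 41 to 60 bp, the pair with the most reads counted once lay on chromosome 12. Its calls at 20508029 to 20508149 and 20508085 to 20508205, 56 bp apart, had 29 and 56 reads and scores of 0.644 and 0.699, in a bin of 2385 reads with 46 occupied overlapping pairs.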

How the data were processed

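Both forms of MNase-seq data were used. Single-end reads of 36 bp were mapped by the authors with MAQ (TIGR release 5, up to 1 mismatch), and unique positions were deposited with both technical replicates together. A filter on repeated reads is not given in the sources used here. For the paired-end library, fragments longer than 200 bp were dropped, the central 40 bp kept and nucleR run by the authors, who deposited each call with its score, whose threshold and scale are not stated. A second deposited list was identical and not used.

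5' ends were counted with numba 0.67.0 under Python 3.11.15 (numpy 2.4.6; scipy 1.17.1; figures with matplotlib 3.10.9). Centres of calls were taken 60 bp after their start. Distances of ends (5 to 75 bp, or 35 to 110 bp from left to right windows) were divided by a running mean over 11 bp. Amplitudes are the largest Fourier amplitude at periods of 9.5 to 11.5 bp. Profiles were smoothed over 21 bp, with the first minimum sought at 75 to 150 bp and the first maximum at 130 to 260 bp. Lone calls had no other centre within 120 bp. The functions were tested on simulated data. No test between sets was made, as each form had 1 biological replicate. The pairs, measures and alternatives were chosen with earlier results of these data known. The levels beside the more and the less occupied call, the distances from left to right windows and the scores within chromosomes were not among the measures first planned and were added after the data had been seen. Named are the 5 pairs with the largest smaller occupancy and, in each class of distance, the pair with the largest one with repeated reads counted once. No genome of the build was at hand, so sequences are not shown.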

Additional observations from a re-analysis of the deposited data

How the results depend on the processing

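Of 98 alternatives over 9 results, 58 left a value within 1 spread (the SD over chromosomes, for the share of close pairs its binomial interval, for the number of pairs 1.5 times), 40 moved it further and 0 reversed it. The number of pairs (120448) was 293741 with 6 reads, 18959 with 12 reads, 14039 with a window of 10 bp, 53901 with repeated reads counted once and 69583 without shared calls. The share (5.49%) was 13.4%, 0.863%, 0.639%, 2.45% and 3.17% in the same order, 5.41% with ends moved by 76 bp, 5.53% up to 90 bp, 5.23% without the 1% of bins with the most reads, and 5.404% to 5.53% without single chromosomes. The median distance (66 bp) was 65 bp with 12 reads and with a window of 10 bp, 64 bp up to 90 bp and without shared calls, and 67 bp from 41 bp. The amplitude in end distances (2.49%) was 2.26% with 12 reads, 2.09% with a window of 10 bp and 1.86% with repeated reads counted once, for which pairs were chosen anew. The smaller share (44.4%) was 42.9% with 6 reads, 45.2% with 12 reads, 44.8% with a window of 10 bp and 45.8% with repeated reads counted once. The swing (22.8%) was 21.5%, 26.1%, 29.8% and 18.8% in that order, and 45.9% without shared calls. The difference of forward shares (0.712 points) was 0.454, 1.43, 1.246 and 0.407 points in that order, 1.01 points with ends moved by 70 bp and 1.06 points without shared calls. The share of calls in the highest 10% of scores (24.5%), whose alternatives were added after seeing the data, was 38.9% with 12 reads and 39.2% with a window of 10 bp, and 18.1% with 6 reads and 29.4% with repeated reads counted once. The last 2 count among the 58 because the spread of this share (10.9 points) holds the different scales of the score, and within chromosomes it was 1.56 points. Except where a stricter minimum admits fewer pairs by construction, the cause of these shifts was not tested. No paired analysis was possible because there is 1 library of each form and no groups to pair, and the technical replicates were pooled and could not be left out. Depth limits single pairs, since most have few reads above the minimum.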

Other observations

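The bin of 10 kb with the most occupied overlapping pairs lay on chromosome 12 from 20480000 to 20489999, where 64 of 80 close pairs had both calls occupied and 3337 single-end reads were found. Among bins of 1 Mb, the highest share of occupied close pairs (9.84%) was found on chromosome 8 from 27 Mb and the lowest (1.80%) on chromosome 5 from 10 Mb. The 1% of bins with the most reads held 5715 of the pairs (4.74%).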
